A study of Mus musculus with 2 samples.

Results

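Described here are 31 genes that type I interferon is known to induce, among the 31053 genes in the deposited tables, in peritoneal cells of mice 3 days after an injection of 1 mg of zymosan, a yeast cell wall preparation that causes peritonitis. They were found by symbol from a list of 32; no row carried the symbol of the other gene, Mx2, which was not analysed here. One library came from M-Cd36-/- mice, in which LysM-Cre deletes a floxed Cd36, the gene of a scavenger and fatty acid receptor, in cells that use the lysozyme promoter, mainly macrophages and neutrophils. The other came from M-Cd36 fl/fl mice, which carry the floxed Cd36 without Cre. All mice were 10 to 14 weeks old, all received zymosan, and each library is a pool of 4 replicates, so no library shows the cavity without zymosan. With 1 library per group no comparison can be tested, and every interval below covers counting error only.

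Type I interferons, the interferon-alpha family and interferon-beta, bind a shared receptor and activate a complex, ISGF3, that holds Stat2 and Irf9. ISGF3 binds interferon-stimulated response elements near gene starts and switches on a large set of genes. The members cover the steps of this circuit: the factors that carry the signal (Stat2, Irf9, Irf7), the sensors of foreign nucleic acid that start it (Ddx58, Ifih1, Dhx58, Zbp1, Ifi204), the effectors that block viruses (the Ifit, Oas and Mx families, Rsad2, Isg20, Bst2, Ifitm3) and proteins that tag or restrain (Isg15, Usp18, Trim30a). Many effectors are kept near silent until interferon is present, while others, such as Ifitm3 and Bst2, are made by myeloid or plasmacytoid cells without it. Macrophages are known to keep a low level of interferon signalling at rest.

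After filtering, 14909 M-Cd36-/- cells and 13816 M-Cd36 fl/fl cells were used, with medians of 6550 and 6855 unique molecular identifiers (UMIs, each standing for 1 captured RNA molecule) per cell. The libraries shared 383 cell barcodes, 2.32% and 2.47% of their barcodes. Cells were clustered without the members and named from fixed markers, and 9 of the named classes held 50 or more cells per library. The 4 smaller groups were plasmacytoid, migratory and type 1 dendritic cells (38 and 30 type 1 cells) and fibroblast and mesothelial cells (33 and 38 cells). Large peritoneal macrophages, the resident macrophages marked by Gata6 (124 CPM in both libraries), numbered 3443 and 2604 cells, and Gata6-low macrophages (Gata6 at 31.4 and 30.9 CPM) numbered 5949 and 4577. Cd36 itself was at 181 against 277 CPM in large peritoneal macrophages and at 168 against 224 CPM in Gata6-low macrophages. The labels do not say which exons were removed, so 3′ counts of Cd36 cannot check the deletion. Levels are CPM, the count of a gene scaled to 1000000 UMIs, from UMIs summed over the cells of a class in a library. A gene was compared in a class where its mean over both libraries was at least 20 CPM, and it was called higher or lower where the libraries differed at least 1.3-fold, a rule of size and not a test. The assay counts 3′ ends once per molecule whatever the gene's length, so levels of different genes are set side by side only as captured molecules.

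The response element core was common in the promoters of the members. Of the 31 members, 22 have a RefSeq promoter window of 300 bases (250 before the start and 50 after, build GRCm38.p6), and 13 of these 22 (59.1%) hold the response element core GAAANNGAAA on either strand, against 1079 of 27025 genes (3.99%). The reverse complement is TTTCNNTTTC, and overlapping matches were each counted. TTCNNNGAA, the element through which interferon-gamma acts, was found in 6 of the 22 members (27.3%) and in 2582 of 27025 genes (9.55%). Stretches around the matches are shown for 6 members that differ in level in these cells and whose matches lie before the start: the near-silent Ifit1, Ifit3, Rsad2 and Oas3, the low Isg15 and the more abundant Bst2. Those of Ifitm3, the most abundant member, and of Ddx58 and Ifih1 lie after the start and are not shown. Capitals mark the matches, and each stretch runs 5′ to 3′ on the gene's own strand.
Isg15: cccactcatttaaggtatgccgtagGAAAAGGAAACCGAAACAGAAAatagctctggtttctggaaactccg
Ifit1: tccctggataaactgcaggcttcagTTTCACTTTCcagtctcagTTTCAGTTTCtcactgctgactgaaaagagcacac
Ifit3: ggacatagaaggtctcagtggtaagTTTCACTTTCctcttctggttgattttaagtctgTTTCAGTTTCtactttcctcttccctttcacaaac
Rsad2: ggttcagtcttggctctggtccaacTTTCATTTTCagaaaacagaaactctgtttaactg
Oas3: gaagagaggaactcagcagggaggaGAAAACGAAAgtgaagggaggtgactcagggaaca
Bst2: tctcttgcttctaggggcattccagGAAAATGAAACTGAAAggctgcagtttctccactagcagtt
The Isg15 stretch (chr4:156200850-156200921, minus strand) has 3 overlapping matches in 1 run, and Bst2 (chr8:71537562-71537627, minus strand) has 2 overlapping matches. Ifit1 (chr19:34640760-34640838, plus strand) has 2 separate matches, as has Ifit3 (chr19:34583348-34583441, plus strand). The Ifit3b promoter holds the same letters as the Ifit3 stretch, at chr19:34607744-34607837. Rsad2 (chr12:26456538-26456597) and Oas3 (chr5:120777700-120777759), both on the minus strand, have 1 match each. No match was found in the windows of Irf9, Irf7, Ifit2, Ifi35, Ifi44, Isg20, Oasl1, Oasl2 and Xaf1, which says only that these letters are not in those windows. The genes also lie close together in families: in the GENCODE M21 annotation chromosome 5 carries 5 members (Oas1a, Oas2, Oas3, Oasl1 and Oasl2) and chromosome 19 the 4 Ifit genes.

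Sequence likeness limits how far some members can be told apart. Of the words of 31 bases in the last 400 bases of the annotated transcripts, Oas1a shares 61.9% with Oas1g, Ifit3 shares 30.5% with Ifit3b, and Ifitm3 shares 26.2% with other genes. Values of Oas1a and Ifit3 are therefore uncertain, and those of Ifitm3 less so. Of the end of Ifit3b itself 5.87% was shared. For the other members the shared part was at most 17.8%.

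**Figure D1:**
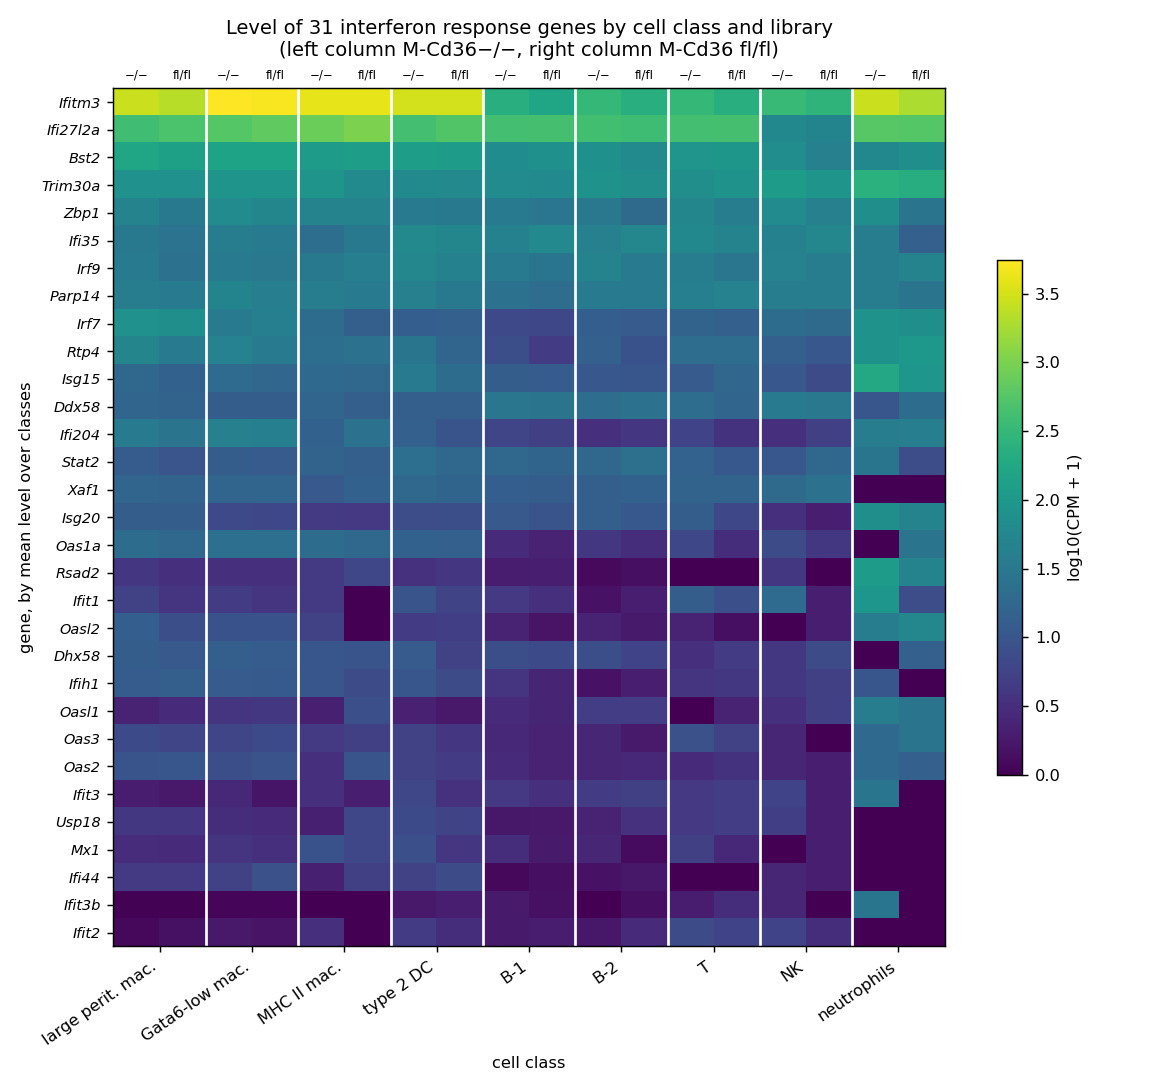
Level of each of the 31 members (rows, from the highest mean to the lowest) in the 9 cell classes (column pairs, M-Cd36-/- on the left of each pair and M-Cd36 fl/fl on the right), as log10 of CPM + 1. Ifitm3 reached 5570 CPM in Gata6-low macrophages of M-Cd36-/- mice, and most Ifit, Oas and Mx genes stayed under 10 CPM outside neutrophils.

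Levels differed widely between members, and where each was highest depended on the gene. Ifitm3, which stops viruses from leaving endosomes, was the most abundant, at 5570 CPM in M-Cd36-/- and 5139 CPM in M-Cd36 fl/fl Gata6-low macrophages, 4076 and 4027 CPM in MHC class II macrophages, 3084 and 3126 CPM in type 2 dendritic cells and 2811 and 2221 CPM in large peritoneal macrophages. It lay between 229 and 329 CPM in the 4 lymphocyte classes of M-Cd36-/- mice and between 161 and 268 CPM in those of M-Cd36 fl/fl mice. Averaged over the libraries, its level in Gata6-low macrophages was 27.5 times that in B-1 cells. Among the 9 larger classes Ifi27l2a was spread more evenly. It ran from 811 and 1010 CPM in MHC class II macrophages to at least 400 CPM (M-Cd36-/-) and 378 CPM (M-Cd36 fl/fl) in every other one but NK cells. In NK cells it was at 55.9 and 47.7 CPM. Of the smaller groups, type 1 dendritic cells had 154 and 199 CPM of it. Bst2, the tetherin that holds budding virus at the cell surface, was at 161 and 134 CPM in large peritoneal macrophages and at 147 and 145 CPM in Gata6-low macrophages, and these neighbours in its order overlapped.

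The signalling factors were present in each of the 9 larger classes, to which this paragraph keeps. Irf9, the DNA-binding part of ISGF3, varied least, from 52.7 and 43.5 CPM in type 2 dendritic cells to 33.8 and 25.01 CPM in large peritoneal macrophages, and every pair of neighbours in its order overlapped. Stat2, its partner, was lower throughout, at 17.2 and 23.1 CPM in B-2 cells and 11.1 and 8.62 CPM in large peritoneal macrophages. Irf7, the factor that amplifies interferon-alpha production, was uneven. It was at 82.0 and 72.7 CPM in neutrophils and 76.7 and 73.4 CPM in large peritoneal macrophages, against 32.5 and 40.3 CPM in Gata6-low macrophages and 5.78 and 5.58 CPM in B-1 cells. Large peritoneal macrophages thus held more Irf7 than Gata6-low macrophages in both libraries, and the counting intervals of the 2 classes were apart. This did not hold in every cluster of the class: in the one led by Cxcl13, Irf7 was at 22.6 and 34.6 CPM, below Gata6-low macrophages.

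Among the sensors, Ddx58 (RIG-I, a receptor of viral RNA) was highest in lymphocytes, at 32.6 and 31.1 CPM in NK cells and 28.8 and 26.2 CPM in B-1 cells, against 11.6 and 11.5 CPM in Gata6-low macrophages. Its relatives ran the other way: Ifih1 (MDA5) was at 11.3 and 12.7 CPM in large peritoneal macrophages and at 0.50 and 1.04 CPM in B-2 cells, and Dhx58 (LGP2), which tunes both, was at 12.7 and 11.2 CPM in Gata6-low macrophages and at 2.31 and 3.43 CPM in T cells. Ifi204, a protein linked to the sensing of DNA, was mostly myeloid, with 41.1 and 40.5 CPM in Gata6-low macrophages and 2.25 and 2.98 CPM in B-2 cells. Zbp1, which binds Z-form nucleic acid and can start necroptosis, was at 63.3 and 50.6 CPM in Gata6-low macrophages and at 30.5 and 18.7 CPM in B-2 cells.

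The inducible effectors were near silent in most classes. Among the 9 larger classes and outside neutrophils, Ifit2, Ifit3 and Ifit3b, relatives of the translation inhibitor Ifit1, stayed at or under 6.46 CPM in each library. Mx1, a GTPase that blocks influenza virus in mice that have it, was highest among the 9 larger classes in MHC class II macrophages, at 7.86 and 5.20 CPM. Of the oligoadenylate synthetases, which switch on RNase L, Oas1a was the highest in macrophages, at 22.4 and 22.1 CPM in Gata6-low macrophages (log2 ratio 0.02, -0.11 to 0.14) and 19.8 and 17.4 CPM in large peritoneal macrophages. Oas2 was at 8.543 and 8.999 CPM in large peritoneal macrophages and Oas3 at 5.87 and 5.07 CPM. Xaf1, a partner of the apoptosis inhibitor XIAP, was at 15.5 CPM in both libraries in Gata6-low macrophages, Isg20, an exonuclease of RNA, at 11.9 and 11.8 CPM in large peritoneal macrophages, and Usp18, which removes ISG15 from proteins, at 3.01 and 2.87 CPM there. Isg15, a ubiquitin-like tag and often the most abundant induced gene, was at 17.3 and 13.7 CPM in large peritoneal macrophages and at 32.4 and 19.9 CPM in type 2 dendritic cells. Over the 18 values of 9 classes and 2 libraries, the patterns most alike were those of Rtp4 and Oas2 (Spearman rho 0.92), both higher in macrophages and neutrophils. The points share libraries, depth and free RNA, so this describes the pattern only.

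Neutrophils stood apart among the classes, on few molecules. They numbered 103 and 135 cells with medians of 719 and 909 UMIs, and 13 of the 31 members had their highest mean level in them. The share of all genes that were highest in neutrophils is not given. In this class 3 UMIs amount to 27.3 and 19.8 CPM, so few molecules can place a gene first. The means of Ifit3 and Ifit3b (13.7 CPM each) and Oas2 (15.7 CPM) lay under both values. Rsad2 (viperin, which makes a chain-terminating nucleotide) had 13 UMIs in M-Cd36-/- and 7 UMIs in M-Cd36 fl/fl neutrophils, or 118 and 46.3 CPM, against 2.93 and 2.15 CPM in large peritoneal macrophages. Isg15 had 20 and 14 UMIs, or 182 and 92.5 CPM. Ifit1 had 10 UMIs in M-Cd36-/- and 1 UMI in M-Cd36 fl/fl neutrophils. These molecules sat in few cells: over the 12 core members defined below, 2 cells held 54.4% of the core UMIs in M-Cd36-/- and 2 cells 31.2% in M-Cd36 fl/fl neutrophils. For Isg15, Isg20, Rsad2 and Trim30a the counting interval lay apart from that of the next of the 9 larger classes in both libraries. For the others of the 13 it overlapped in at least 1 library.

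Almost no type I interferon transcript was captured. Over all used cells Ifnb1 had 0 UMIs in M-Cd36-/- and 1 UMI in M-Cd36 fl/fl cells, and the 6 interferon-alpha genes looked for (Ifna1, Ifna2, Ifna4, Ifna5, Ifna9 and Ifna12) had 0 UMIs in both libraries, which allows up to 3 UMIs of each per library. Ifnk had 1 and 2 UMIs, and Ifne, Ifnl2 and Ifnl3 had 0. Interferon-gamma was present: Ifng had 42 UMIs in 33 M-Cd36-/- cells and 26 UMIs in 23 M-Cd36 fl/fl cells, and of all ligand UMIs 16 and 5 fell in T cells and 22 and 16 in NK cells.

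To see whether the response sat in a few strongly responding cells, 12 members known to be low without interferon were summed as core members (Ifit1, Ifit2, Ifit3, Ifit3b, Isg15, Rsad2, Usp18, Oasl1, Oas2, Oas3, Mx1 and Ifi44). Their summed level was 49.9 and 44.1 CPM in large peritoneal macrophages and 51.6 and 50.7 CPM in Gata6-low macrophages. It was 80.3 and 54.4 CPM in type 2 dendritic cells, 49.8 and 48.0 CPM in T cells, 28.9 and 24.5 CPM in B-1 cells and 24.2 and 26.5 CPM in B-2 cells. Neutrophils had 519 and 211 CPM, from 57 and 32 UMIs, a log2 ratio of 1.296 (0.65 to 1.97). Without the 2 cells with the most core UMIs in each library they had 240 and 147 CPM, a log2 ratio of 0.71 (-0.17 to 1.60).

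**Figure D2:**
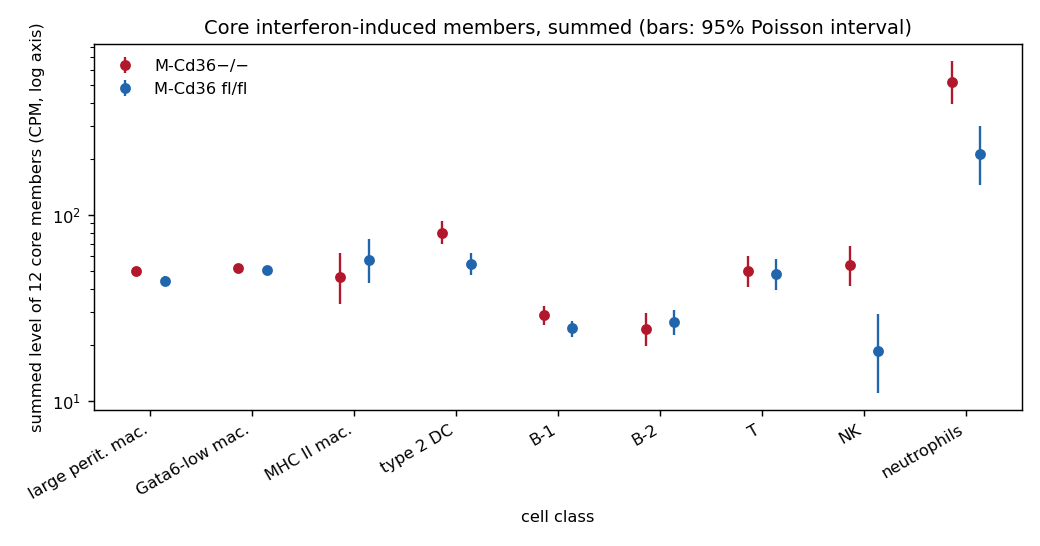
Summed level of the 12 core members in each class (CPM, log axis), M-Cd36-/- in red left of M-Cd36 fl/fl in blue, with 95% Poisson intervals of the counts. The libraries lay close together in both large macrophage classes (49.9 and 44.1 CPM, 51.6 and 50.7 CPM), and the widest gaps were in NK cells and neutrophils.

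Cells with many core molecules were rare. After each cell was thinned to 1000 UMIs, cells with at least 3 core UMIs made up 0.0291% of M-Cd36-/- large peritoneal macrophages (1 cell, 95% Clopper-Pearson interval 0.000737 to 0.162%) and 0.115% of M-Cd36 fl/fl ones (3 cells, 0.0238 to 0.337%). In Gata6-low macrophages the shares were 0.102% (0.0373 to 0.221%) and 0.0663% (0.0137 to 0.194%). The difference, M-Cd36-/- minus M-Cd36 fl/fl, was -0.0864 points (-0.310 to 0.0751) and 0.0353 points (-0.107 to 0.166), so no difference was detectable at this depth. Thinned to 5000 UMIs, the shares in large peritoneal macrophages were 0.725% (0.443 to 1.12%) and 0.320% (0.129 to 0.659%), so the direction turned with depth. Without thinning the shares were 2.06% and 2.19% in large peritoneal macrophages, at medians of 7298 and 8235.5 UMIs per cell, and 2.44% and 3.32% in Gata6-low macrophages, at 8581 and 9765 UMIs. The 1% of cells with the most core UMIs held 14.1% and 12.8% of the core UMIs of large peritoneal macrophages, and 21.7% and 18.4% of those of Gata6-low macrophages, with up to 77 and 45 UMIs in 1 cell. Unthinned, 72.4% and 71.7% of large peritoneal macrophages had no core UMI at all. Free RNA can place a UMI in a cell that does not express the gene, and its part in these shares was not tested. B-2 cells, with medians of 2105 and 2499 UMIs, passed the unthinned limit in 0.197% and 0.227% of cells.

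In the 2 large macrophage classes, cells with Isg15 held another core molecule somewhat more often than cells without it. Some other classes went the same way on very few cells, and B-1 cells did not. Among thinned Gata6-low macrophages with an Isg15 UMI, 7.69% of M-Cd36-/- cells (3.58 to 14.1%) and 8.70% of M-Cd36 fl/fl cells (3.258 to 17.97%) had another core UMI, against 3.12% and 3.28% of those without Isg15. The counts behind this are small, with 117 and 69 Isg15-positive cells, and the lower bound in M-Cd36 fl/fl cells lies at the level of the cells without Isg15. In large peritoneal macrophages it was 4 of 50 and 2 of 20 Isg15-positive cells, against 3.16% and 2.99% of the others. In B-1 cells it was 0 of 14 and 0 of 16 Isg15-positive cells (upper bounds 23.2% and 20.6%), against 1.43% and 1.35% of the others.

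Between the libraries, large peritoneal macrophages showed the clearest shift. Of 11 members compared, 9 had a ratio above 0 and 2 below 0 on the log2 scale, and the median log2 ratio was 0.27, beside 0.00 over the 4367 genes compared in the class. At least 1.3-fold higher in M-Cd36-/- cells were 3 members, Zbp1, Rtp4 and Irf9, and none was lower. Over all compared genes 1.03% were higher and 1.69% lower by the same rule. The sensor Zbp1 was at 45.9 CPM (1235 UMIs) in M-Cd36-/- and 31.9 CPM (755 UMIs) in M-Cd36 fl/fl cells, a log2 ratio of 0.52 (0.39 to 0.66). Rtp4, a receptor chaperone that interferon induces, was at 49.4 and 35.3 CPM, a log2 ratio of 0.49 (0.36 to 0.61). Irf9 was at 33.8 and 25.01 CPM, a log2 ratio of 0.43 (0.28 to 0.59).

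The 3 most abundant members did not move together in these cells. Ifitm3, at 2811 CPM in M-Cd36-/- and 2221 CPM in M-Cd36 fl/fl cells, had a log2 ratio of 0.34 (0.32 to 0.36). Bst2, at 161 and 134 CPM, had one of 0.27 (0.20 to 0.33). Ifi27l2a went the opposite way, with 400 and 477 CPM and a log2 ratio of -0.25 (-0.29 to -0.21). Ifi35 (0.32) and Ifi204 (0.27) lay beside Bst2, while Irf7 (0.06), Parp14, an ADP-ribosyltransferase (0.06), and Trim30a, a brake on innate signalling (-0.01), had intervals that include 0. Of the members under the level limit, Oasl2 was at 12.04 and 6.887 CPM (324 and 163 UMIs, log2 ratio 0.81, 0.53 to 1.09), Isg15 at 17.3 and 13.7 CPM (0.34, 0.13 to 0.55) and Stat2 at 11.1 and 8.62 CPM (0.37, 0.11 to 0.63). The summed core members had a log2 ratio of 0.18 (0.06 to 0.30).

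Macrophage markers moved with this class as well. The 9 fixed macrophage markers summed to 10759 CPM in M-Cd36-/- and 8911 CPM in M-Cd36 fl/fl large peritoneal macrophages, a log2 ratio of 0.27, and 7 of the 9 were above 0. Per 100 marker UMIs there were 26.1 and 24.9 Ifitm3 UMIs. Their part in the result was not tested. When free RNA was subtracted, gene by gene, as the level in the lowest lymphocyte class, which also removes what all classes express, 1 member was still called higher, Rtp4 (log2 ratio 0.43), and Zbp1 was at 0.23.

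**Figure D3:**
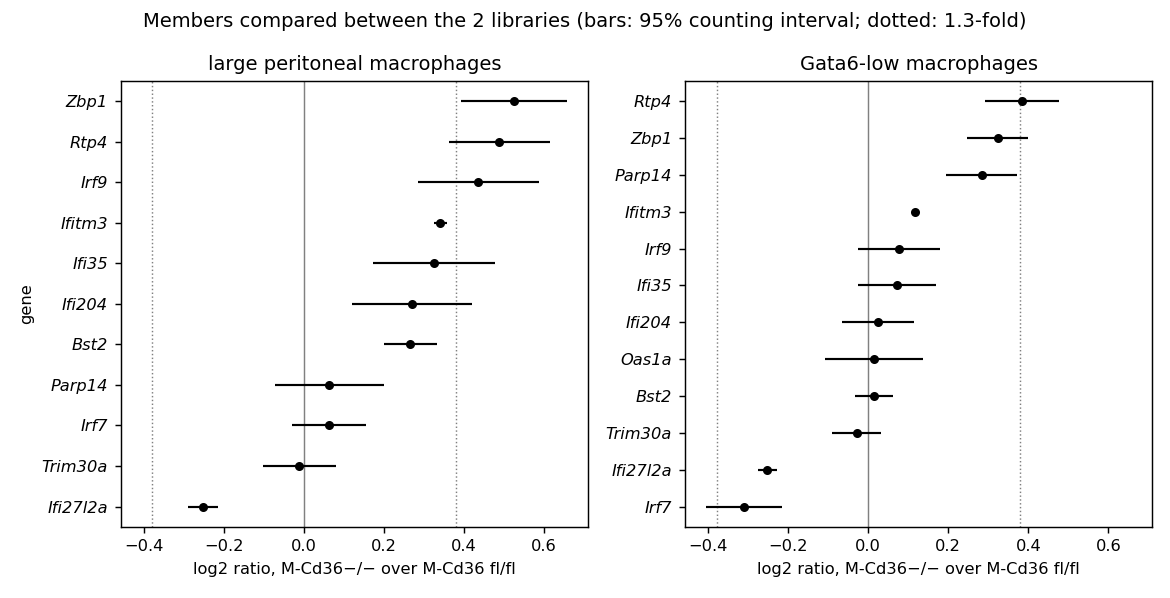
Log2 ratio, M-Cd36-/- over M-Cd36 fl/fl, of every member compared in large peritoneal macrophages (left) and Gata6-low macrophages (right), with 95% counting intervals and dotted lines at 1.3-fold. Zbp1 and Rtp4 head both panels (0.52 and 0.49, 0.32 and 0.38) and Ifi27l2a lies at -0.25 in both.

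The shift was not even within the large peritoneal macrophages. In the largest of their 4 clusters, led by Lcn2, Cald1 and Marco, Rtp4 was at 56.4 and 36.1 CPM (log2 ratio 0.65, 0.49 to 0.81), Irf9 at 35.7 and 23.6 CPM (0.60, 0.40 to 0.80) and Zbp1 at 51.2 and 36.1 CPM (0.50, 0.34 to 0.67). In the cluster led by Cxcl13, Alox15 and Vsig4, Zbp1 was at 32.2 and 21.1 CPM (0.61), but Rtp4 was at 33.5 and 36.0 CPM (-0.11, -0.40 to 0.19) and Irf9 at 32.3 and 31.6 CPM (0.03, -0.27 to 0.34). Irf7 also split: it was at 104 and 91.9 CPM in the first cluster (0.17, 0.07 to 0.28) and at 22.6 and 34.6 CPM in the second (-0.62, -0.94 to -0.29). In that second cluster 16.7% of all compared genes were at least 1.3-fold higher in M-Cd36-/- cells, against 1.48% in the first, so its cells differed between the libraries in much more than the members. Without it the class still had 3 members higher and a median of 0.28.

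Gata6-low macrophages, the most numerous cells, showed less. The median log2 ratio of the 12 members compared was 0.05, beside -0.02 over 4474 genes, with 9 above 0 and 3 below 0. Only Rtp4 was called, at 45.5 CPM (2406 UMIs) in M-Cd36-/- and 34.8 CPM (1606 UMIs) in M-Cd36 fl/fl cells, a log2 ratio of 0.38 (0.29 to 0.48). Over all compared genes 1.05% were higher and 1.68% lower. Rtp4 lay just past the limit, and the call was lost without the cluster led by Cx3cr1 (0.30), whose leading genes include MHC class II genes.

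Just inside the limit in Gata6-low macrophages, Zbp1 was at 63.3 and 50.6 CPM (0.32, 0.25 to 0.40), Parp14 at 47.2 and 38.8 CPM (0.28, 0.20 to 0.37) and Irf7 at 32.5 and 40.3 CPM (-0.31, -0.40 to -0.21). Irf9, called in large peritoneal macrophages, was at 32.5 and 30.8 CPM here (0.08, -0.03 to 0.18). Of the most abundant members, Ifitm3 was at 5570 and 5139 CPM (0.12), Ifi27l2a at 573 and 682 CPM (-0.25) and Bst2 at 147 and 145 CPM (0.01). Some near-silent effectors went apart: Ifit3 had 84 UMIs in M-Cd36-/- and 28 UMIs in M-Cd36 fl/fl cells (1.59 and 0.61 CPM, log2 ratio 1.39, 0.75 to 2.06), while Ifi44 had 240 and 347 UMIs (4.54 and 7.53 CPM, -0.73, -0.97 to -0.49). The macrophage markers summed to 8024 and 7979 CPM here (log2 ratio 0.01).

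Across the 8 clusters of these 2 classes some members kept 1 direction. The share of all genes that did so is not given, so this describes single members only. Zbp1 had a log2 ratio above 0 in all 8, between 0.22 and 1.11, and Ifitm3 likewise, between 0.06 and 0.42. The ratio of Ifi27l2a was below 0 in all 8, between -0.39 and -0.02. Those of Isg15 (0.16 to 0.81) and Dhx58 (0.03 to 0.68) were above 0 in all 8, though 6 of the 8 intervals of Isg15 and all 8 of Dhx58 include 0. Rtp4 was above 0 in 7 of 8, between -0.11 and 0.75. Clusters share the 2 libraries and are not replicates.

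In type 2 dendritic cells (294 and 382 cells) 3 of 10 compared members were called higher and none lower. The median of the members was 0.14, beside 0.04 over all compared genes. The background was 7.27% higher and 3.53% lower. Isg15 was at 32.4 and 19.9 CPM (81 and 75 UMIs, log2 ratio 0.70, 0.23 to 1.17), Rtp4 at 28.0 and 15.7 CPM (0.84, 0.32 to 1.36) and Parp14 at 42.3 and 31.6 CPM (0.42, 0.03 to 0.81). Among the most abundant, Ifitm3 was at 3084 and 3126 CPM (-0.02), Ifi27l2a at 415 and 536 CPM (-0.37) and Bst2 at 126 and 117 CPM (0.11). With the top 1% of cells by core UMIs left out no member was called, with Isg15 at 0.49, Rtp4 at 0.74 and Parp14 at 0.35 and some of them under the level limit, and under both other scalings Ifi27l2a was called lower beside the 3 higher members. The summed core level, 80.3 and 54.4 CPM, had a log2 ratio of 0.56 (0.27 to 0.85), and 0.52 (0.20 to 0.84) without the top 1% of cells.

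MHC class II macrophages were few (106 and 130 cells), and their calls stayed close to the background of 14.5% higher and 14.8% lower genes. Of 9 compared members, Trim30a was called higher (85.4 and 61.4 CPM, log2 ratio 0.48, -0.03 to 0.99) and Ifi35 lower (21.3 and 31.2 CPM, -0.55, -1.46 to 0.33), and both intervals include 0. Ifitm3 (4076 and 4027 CPM, 0.02), Ifi27l2a (811 and 1010 CPM, -0.32) and Bst2 (118 and 122 CPM, -0.05) were the highest members.

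In B cells the calls included Ifitm3 in both classes. B-1 cells (1409 and 2021 cells) had 9 compared members with a median of 0.14 (0.01 over all compared genes). Of these members Ifitm3 was higher and Ifi35 lower. The background was 2.11% higher and 2.49% lower. Ifitm3 was at 229 and 161 CPM (log2 ratio 0.51, 0.43 to 0.59), and Ifi35, which pairs with Nmi, at 43.3 and 57.0 CPM (412 and 951 UMIs, -0.40, -0.57 to -0.23). B-2 cells (1521 and 2200 cells) had 10 compared members with a median of 0.16 (0.02 over all compared genes). Of these members 3 were higher and 1 lower, over a background of 3.95% higher and 2.83% lower. Higher were Ifitm3 (314 and 220 CPM, 0.51, 0.40 to 0.62), Zbp1 (30.5 and 18.7 CPM, 0.70, 0.33 to 1.07) and Irf9 (45.7 and 34.5 CPM, 0.41, 0.12 to 0.69). Lower was Stat2, at 17.2 and 23.1 CPM (69 and 155 UMIs, -0.42, -0.85 to -0.00). Ifi27l2a was the highest member in both, at 420 and 440 CPM in B-1 cells (-0.07) and 414 and 378 CPM in B-2 cells (0.13).

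T cells (741 and 647 cells) had 9 compared members with a median of -0.02, beside 0.06 over all compared genes. Ifitm3 (313 and 233 CPM, log2 ratio 0.43, 0.26 to 0.59) and Zbp1 (52.2 and 38.1 CPM, 0.45, 0.04 to 0.87) were called higher and none lower, over a background of 9.79% higher and 4.3% lower. Ifi27l2a was at 427 and 440 CPM (-0.04). NK cells (526 and 355 cells) had 10 compared members with a median of 0.24, beside 0.04 over all compared genes. Bst2 (66.8 and 42.5 CPM, 86 and 41 UMIs, 0.65, 0.10 to 1.23) and Zbp1 (62.9 and 41.4 CPM, 0.60, 0.04 to 1.19) were higher and none lower, while Ifitm3 was at 329 and 268 CPM (0.29) and Trim30a at 111 and 86.0 CPM (0.37). The background there was 13.9% higher and 10.3% lower. The summed core members in NK cells had 69 UMIs in M-Cd36-/- and 18 UMIs in M-Cd36 fl/fl cells (53.6 and 18.7 CPM, 1.52, 0.76 to 2.36). In M-Cd36-/- NK cells, 6 cells held 53.6% of the core UMIs. Without the top 1% of cells in each library the log2 ratio was 0.89 (-0.08 to 1.94).

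The summed macrophage markers were also higher in M-Cd36-/- lymphocytes, where Ifitm3 was called in 3 of 4 classes. The 9 macrophage markers, none of them at 0, summed to 496 and 350 CPM in B-1 cells (log2 ratio 0.50), 707 and 488 CPM in B-2 cells (0.54), 712 and 445 CPM in T cells (0.68) and 795 and 552 CPM in NK cells (0.53), against 10759 and 8911 CPM in large peritoneal macrophages. Between 7 and 9 of the 9 markers were above 0 in each lymphocyte class. Lyz2, a lysozyme gene abundant in macrophages and not among the 9, went the other way. The M-Cd36-/- mice carry LysM-Cre, which uses the lysozyme promoter, and the M-Cd36 fl/fl mice do not. Whether the Cre alters Lyz2 was not tested, so Lyz2 cannot serve as a check of the markers. Lyz2 was at 1132 and 1414 CPM in B-1 cells and 1686 and 2024 CPM in B-2 cells. T cells had 1610 and 1953 CPM of it, and NK cells 1757 and 2256 CPM. In large peritoneal macrophages Lyz2 was at 20213 and 30898 CPM. Per 100 marker UMIs, B-1 cells held 46.1 Ifitm3 UMIs in M-Cd36-/- and 45.9 in M-Cd36 fl/fl mice, and B-2 cells 44.4 and 45.2. In T cells the values were 44.0 and 52.4 and in NK cells 41.3 and 48.6, so there Ifitm3 differed less between the libraries than the markers did. The part of such transcripts in the lymphocyte values of Ifitm3 was not tested. Ifitm2 and Ifitm6, its neighbours in the family and also macrophage genes here, had log2 ratios of 0.55 and 0.61 in B-1 cells and 0.57 and 0.56 in B-2 cells.

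**Figure D4:**
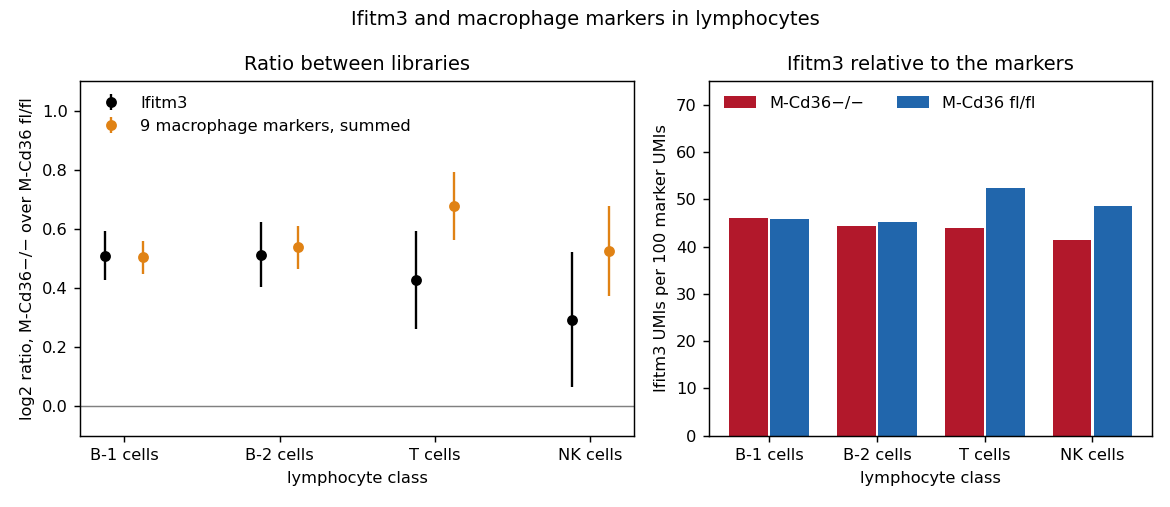
Left, log2 ratio (M-Cd36-/- over M-Cd36 fl/fl) of Ifitm3 in black and of 9 summed macrophage markers in orange in 4 lymphocyte classes, with 95% counting intervals. Right, Ifitm3 UMIs per 100 marker UMIs in M-Cd36-/- (red, left bar) and M-Cd36 fl/fl (blue) cells, 46.1 and 45.9 in B-1 cells 44.4 and 45.2 in B-2 cells, 44.0 and 52.4 in T cells and 41.3 and 48.6 in NK cells.

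Neutrophil counts were too small for the size rule. Of 18 compared members 9 were called higher and 3 lower, but over all compared genes 35.2% were higher and 29.5% lower, since the class holds 109771 UMIs in M-Cd36-/- and 151350 UMIs in M-Cd36 fl/fl mice. Ifitm3 was at 2815 and 1923 CPM (log2 ratio 0.55, 0.31 to 0.79) and Ifit1 at 91.1 and 6.61 CPM (3.79, 0.97 to 9.22), and the intervals of the other 10 called members include 0. Without the 2 cells with the most core UMIs in each library, Ifit1 was no longer called and Rsad2 (1.36, -0.07 to 2.92) had a ratio of 0.20. Isg15 was at 0.98 (-0.08 to 2.08), Zbp1 (8 and 4 UMIs) at 1.46 (-0.44 to 3.65), Ifi35 (4 and 2 UMIs) at 1.46 (-1.34 to 4.93) and Isg20 (8 and 7 UMIs) at 0.66 (-1.002 to 2.35). Ifi27l2a (592 and 575 CPM, 0.04) and Trim30a (246 and 211 CPM, 0.22) were the highest members after Ifitm3 and lay within the limit. Oasl1 and Parp14 had 4 UMIs each in both libraries (0.46, -1.96 to 2.89). Called lower were Oas3 (2 and 4 UMIs, -0.54, -4.003 to 2.27), Oasl2 (4 and 8 UMIs, -0.54, -2.72 to 1.36) and Bst2 (6 and 11 UMIs, -0.41, -2.13 to 1.15). The macrophage markers in neutrophils were at 3526 and 3072 CPM, with 8 of the 9 found in both libraries. The part of such transcripts in the neutrophil values was not tested.

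The rest of the pathway, from lists chosen for this description, placed the members in context. Among the receptors and signalling factors, Irf1, a factor that interferon-gamma induces strongly, was at 35.3 and 24.5 CPM in large peritoneal macrophages (log2 ratio 0.53, 0.38 to 0.68) and at 49.2 and 26.3 CPM in Gata6-low macrophages (0.91, 0.81 to 1.01). Irf8, a factor of myeloid cells, was at 46.5 and 38.0 CPM in large peritoneal macrophages (0.29) and at 92.9 and 60.2 CPM in Gata6-low macrophages (0.63). The receptor genes themselves lay within the limit: in Gata6-low macrophages Ifnar1 was at 37.4 and 39.2 CPM (-0.07), Ifnar2 at 98.3 and 91.9 CPM (0.10) and Ifngr1 at 123 and 143 CPM (-0.21).

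Genes that interferon-gamma induces were further apart in Gata6-low macrophages than the type I members. All 12 compared genes of that list had a ratio above 0 there, 5 were higher and none lower, and the median was 0.34, beside 1.05% higher and 1.68% lower over all compared genes. Above 0 were 44.9% of all compared genes there and 50.1% in large peritoneal macrophages. The GTPases Gbp2b (29.4 and 13.9 CPM, log2 ratio 1.08, 0.95 to 1.21), Gbp2 (143 and 89.8 CPM, 0.67, 0.62 to 0.73) and Ifi47 (39.9 and 27.8 CPM, 0.52, 0.42 to 0.62) led, and the immunoproteasome subunit Psmb9 was at 153 and 114 CPM (0.42). In large peritoneal macrophages 9 of 9 were above 0, with a median of 0.26, and only Psmb9 was called, higher, over a background of 1.03% (109 and 82.2 CPM, 0.41, 0.32 to 0.49), beside Gbp2 at 90.0 and 70.4 CPM (0.35). A list of 45 further type I interferon-induced genes, by contrast, had no call in either class. Its median was 0.11 over 20 genes in large peritoneal macrophages, with Ifitm2 at 1523 and 1187 CPM (0.36) and Ly6a at 23.1 and 27.6 CPM (-0.26), and 0.02 over 22 genes in Gata6-low macrophages, with Trim25 at 41.7 and 51.1 CPM (-0.29) and Sp110 at 92.4 and 79.2 CPM (0.22). Many of these genes answer to both interferons, so the lists do not separate the 2 signals. The differences between lists have no test.

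**Figure D5:**
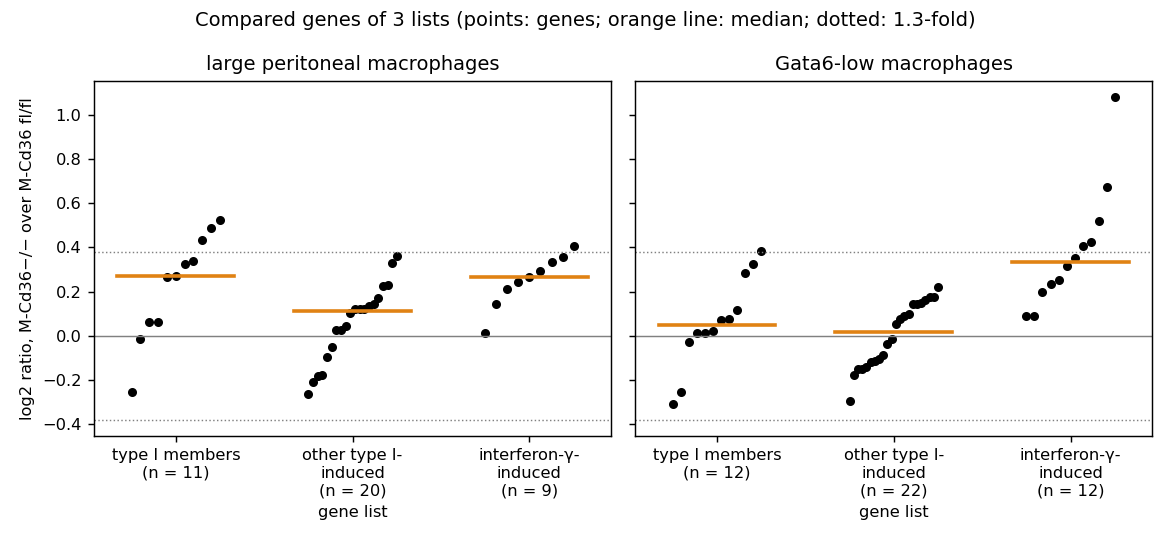
Log2 ratio (M-Cd36-/- over M-Cd36 fl/fl) of each compared gene of 3 lists in large peritoneal macrophages (left) and Gata6-low macrophages (right); orange lines are medians and dotted lines 1.3-fold. The medians of members, other type I-induced and interferon-gamma-induced genes are 0.27, 0.11 and 0.26 on the left and 0.05, 0.02 and 0.34 on the right.

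Sensors and brakes were nearly level in the macrophages. Of the 9 compared sensors and adaptors, Zbp1 in large peritoneal macrophages was the only call in either class, and the medians were 0.06 in large peritoneal and 0.03 in Gata6-low macrophages. Tlr2, a receptor of zymosan, was at 39.7 and 34.0 CPM in Gata6-low macrophages (log2 ratio 0.22, 0.13 to 0.32), and Irf3, the factor that starts interferon-beta transcription, at 24.9 and 28.7 CPM in large peritoneal macrophages (-0.21). Of the 6 compared brakes none was called in either class. The interferon-induced inhibitor Socs3 was at 29.1 and 24.4 CPM in Gata6-low macrophages (0.25) and Stat3 at 67.3 and 72.4 CPM in large peritoneal macrophages (-0.11). Of the 5 genes of ISG15 conjugation only Uba7, in large peritoneal macrophages, was past the level limit in a macrophage class. Uba7, the enzyme that activates ISG15, was at 37.8 and 35.2 CPM in large peritoneal macrophages (0.10).

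Outside the macrophages the lists differed between classes. In type 2 dendritic cells 9 of the 11 compared interferon-gamma-induced genes had a ratio above 0, 2 were higher and none lower. Of the other type I-induced genes 17 of 22 were above 0, 3 higher and 1 lower. Over all compared genes 58.1% were above 0, 7.27% higher and 3.53% lower. In MHC class II macrophages 5 of 17 of that list were above 0, 1 higher and 6 lower, over a background of 51.3%, 14.5% and 14.8%. In type 2 dendritic cells Irf1 was at 37.5 and 27.9 CPM (log2 ratio 0.43, 0.01 to 0.84) and Ifnar1 at 37.1 and 50.4 CPM (-0.44, -0.82 to -0.08). From the interferon-gamma list Igtp, another GTPase, was at 31.2 and 14.1 CPM (1.15, 0.62 to 1.68). In B-1 cells 5 of the 10 compared genes of that list had a ratio above 0 and 1 was called, lower (background 2.49%), with Gbp7 at 35.8 and 56.5 CPM (-0.66, -0.84 to -0.48) and Gbp3 at 34.1 and 42.3 CPM (-0.31), while all 6 compared sensors and adaptors were above 0 with none called. Over all compared genes of B-1 cells 53.0% were above 0. In B-2 cells Tap1, the peptide transporter, was at 74.0 and 55.5 CPM (0.41) and Trim25 at 46.2 and 64.4 CPM (-0.48).

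In 2 small dendritic cell groups single members stood out by level. Plasmacytoid dendritic cells, known as the strongest producers of interferon-alpha, numbered 26 and 28 cells (Siglech at 509 and 426 CPM). Bst2, a known marker of these cells in mice, was at 2114 CPM (278 UMIs) and 1661 CPM (316 UMIs) in them, far above its level in every other class, while Irf7 had 6 and 5 UMIs and Isg15 had 7 and 2. In migratory dendritic cells (11 and 15 cells) Mx1 had 15 and 12 UMIs, or 200 CPM (112 to 330) and 83.9 CPM (43.3 to 147), and Isg15 had 4 and 25 UMIs, or 53.3 and 175 CPM. These groups are below the 50 cells per library set for comparisons, and no ratio is given for them.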

How the data were processed

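Single-cell RNA-seq libraries of peritoneal cells were analysed from the deposited UMI counts, which per the submitters' processing notes were made with Cell Ranger on mm10 and per the file headers carry software version 3.0.0. The deposited counts are whole numbers per gene and cell barcode, with at least 500 UMIs per barcode. Cells with under 200 genes or over 10% mitochondrial UMIs were removed, then doublets called by Scrublet in each library (6.82% and 6.22%). Counts were scaled to 10000 per cell, and 2000 variable genes, without the members, the pathway lists, Cd36, Lyz2, Lyz1, Xist and Tsix, gave 40 principal components, 20 neighbours and 25 Leiden clusters at resolution 1 (scanpy 1.11.5). Clusters were named from fixed markers. The score limits for naming, and the setting aside of plasmacytoid cells found at resolution 2, were chosen after the clusters were seen, as was leaving out 2 macrophage clusters. Clusters left without a name hold 4.76% and 4.73% of cells. UMIs were summed per class and library and given as CPM with exact Poisson intervals, and ratios with exact conditional binomial intervals, at 95%. The scripts were tested on simulated counts. The members and lists were chosen with earlier results of these data known. Ratios with intervals are given in a class for the members past the level and size limits, and levels for the 3 highest; up to 4 genes of each pathway list per class with the largest ratios could be named, and a few receptor and ligand genes, the small dendritic cell groups and members under the level limit were added after their values were seen. The counts of the receptor and signalling list, and 1 of its genes, are not reported here.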

Additional observations from a re-analysis of the deposited data

Results flagged for a closer look

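For Ifi35 and Bst2, classes called in opposite directions between the libraries stood out; the difference between classes was not tested. Ifi35 had a log2 ratio, M-Cd36-/- over M-Cd36 fl/fl, of 1.46 in neutrophils (4 and 2 UMIs), -0.55 in MHC class II macrophages (19 and 30 UMIs) and -0.40 in B-1 cells (412 and 951 UMIs). Bst2 had one of 0.65 in NK cells (86 and 41 UMIs) and -0.41 in neutrophils (6 and 11 UMIs). Of these 5 intervals, those of Ifi35 in B-1 cells (-0.57 to -0.23) and Bst2 in NK cells (0.10 to 1.23) exclude 0.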

How the results depend on the processing

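No paired analysis was possible because each group is 1 library. Ratios are M-Cd36-/- over M-Cd36 fl/fl on the log2 scale, counts are called members, and the cause of each change was not tested unless given. The share of all genes called is not given for the settings below. The counts therefore cannot be set against a background and describe the members only. The median over the members of large peritoneal macrophages stayed between 0.18 and 0.29, and that of Gata6-low macrophages between 0.01 and 0.07. Calls turned more on the limits: at 1.5-fold there were 0 higher in large peritoneal, Gata6-low and MHC class II macrophages, B-1 and T cells, 1 in B-2 cells, and 0 lower in MHC class II macrophages, B-1 and B-2 cells and neutrophils. At 1.2-fold there were 7 higher in large peritoneal macrophages, 3 in Gata6-low macrophages, 2 in B-1 and 4 in NK cells, and lower were 1 in Gata6-low macrophages and type 2 dendritic cells, 3 in MHC class II macrophages, 2 in B-2 and NK cells and 5 in neutrophils. With a mean of at least 5 CPM, higher were 4 in MHC class II macrophages, 8 in type 2 dendritic and T cells, 2 in B-1 and 5 in B-2 and NK cells, and lower were 1 in Gata6-low macrophages, type 2 dendritic, T and NK cells and 4 in MHC class II macrophages. With no level limit, higher were 6 in large peritoneal macrophages, 5 in Gata6-low and MHC class II macrophages, 12 in type 2 dendritic, T and NK cells, 11 in B-1 and 9 in B-2 cells; lower were 2 in large peritoneal macrophages, type 2 dendritic and B-1 cells, 1 in Gata6-low macrophages, 8 in MHC class II macrophages and B-2 cells, 4 in T and 5 in NK cells, and the median in B-2 cells was 0.056. These limits change by construction how many members are compared.

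Subtracting free RNA left 1 higher in large peritoneal macrophages and NK cells and 0 in MHC class II macrophages, type 2 dendritic, B-1, B-2 and T cells; lower were 2 in MHC class II macrophages, 1 in type 2 dendritic cells and 0 in B-1 and B-2 cells. The medians were then -0.48 in MHC class II macrophages, and below 0 in type 2 dendritic cells (-0.31) and B-1 cells (-0.090), the reverse of before; the subtraction also takes level from genes every class expresses. In lymphocytes it scales the lowest lymphocyte level by the marker sum, so a class that is itself the lowest, as B-1 cells are for Ifitm3, becomes 0 by construction. Without the 50 top genes in the totals Gata6-low macrophages had 0 higher, and with that or median ratio scaling 1 member was lower in type 2 dendritic and NK cells; median ratio scaling left 1 higher in T cells. As a mean over cells, higher were 2 in Gata6-low macrophages and 4 in T cells, and lower 3 in MHC class II macrophages and 1 in NK cells and neutrophils.

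With at least 500 genes per cell MHC class II macrophages had 2 higher and 3 lower, and B-2 cells 0 lower. A mitochondrial limit of 5% gave 0 higher in Gata6-low and MHC class II macrophages, 2 in B-1 cells and 0 lower in B-2 cells. One of 20% gave 0 higher in Gata6-low and 2 in MHC class II macrophages, 0 lower in MHC class II macrophages and B-2 cells and 1 in NK cells, and turned Trim30a in MHC class II macrophages to -0.066 and Bst2 (0.025) and Parp14 (-0.30) in neutrophils. With doublets kept there were 2 higher and 3 lower in MHC class II macrophages, 1 higher in T cells and 1 lower in NK cells, and Oasl1 (-0.29) and Parp14 (-0.70) turned in neutrophils. Resolution 2 gave 0 lower in MHC class II macrophages. A marker gate gave 0 higher in Gata6-low macrophages, 3 in B-1 and 1 in T cells and 5 in neutrophils, 0 lower in MHC class II macrophages and B-1 cells, and turned Oasl1 in neutrophils (-0.82). The gate kept 43.9% of the clustered Gata6-low macrophages and 26.1% of the B-1 cells. It named 4680 cells MHC class II macrophages, against 236 by clusters, so its classes are not the same cells. Without the top 1% of cells type 2 dendritic cells had 0 higher, and without the cluster led by Cx3cr1, an alternative chosen after seeing the data, Gata6-low macrophages had 0.

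Shares of cells past the core limit depended on depth. At 5000 UMIs they were 0.725% and 0.320% in large peritoneal macrophages, higher in M-Cd36-/- and not lower as at 1000 UMIs, 1.04% and 0.785% in Gata6-low macrophages, 4.58% and 1.66% in type 2 dendritic cells, 0.443% in M-Cd36 fl/fl B-1 cells and 0% and 0.415% in B-2 cells. Without thinning they were 2.06% and 2.19% in large peritoneal macrophages, 2.44% and 3.32% in Gata6-low macrophages, 3.85% in M-Cd36 fl/fl MHC class II macrophages, 6.12% and 5.24% in type 2 dendritic cells, 0.781% and 0.990% in B-1 cells, and 0.227% and 1.39% in M-Cd36 fl/fl B-2 and T cells. Leaving out the top 1% of cells makes most of them 0% by construction, and the marker gate gave 0% in M-Cd36-/- large peritoneal macrophages. Among 562 values of single members 6 were reversed, all named above.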
